A study of Mus musculus with 6 samples.

Results

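The core circadian clock and PAR bZIP genes are 10 of the 23366 genes counted in epithelium of the embryonic mouse small intestine. They were taken by symbol: Dbp, Tef and Hlf (the PAR bZIP transcription factors), Per1, Per2 and Per3 (the period genes), Cry1 and Cry2 (the cryptochromes), and Arntl and Clock (the activator pair). The RNA-seq data hold 3 libraries with the genotype Shh-cre-egfp:Tcf7l1 lox/lox, named mutant here, and 3 wild type libraries, all at embryonic day 13.5 and untreated. The mutants were homozygous for the conditional Tcf7l1 allele and carried a Cre-EGFP fusion at the Shh locus, which is active in gut epithelium. A library with Cre and intact Tcf7l1 was not analysed here, so Cre, a lost Shh copy and loss of Tcf7l1 cannot be told apart. Each library was made from 500 EpCAM-positive sorted cells and amplified over 15 PCR cycles. The sources used here do not say whether the libraries of a group came from separate embryos, so p-values measure only the spread between these libraries, which may be technical. They also do not give the hour of dissection, and time of day and genotype cannot be told apart. In bulk libraries such as these, fewer cells of a type and less RNA per cell cannot be told apart either.

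The circadian clock is a transcriptional loop that turns over about once a day. ARNTL (also called BMAL1) and CLOCK bind as a pair to the E-box element and drive the Per and Cry genes, whose proteins enter the nucleus and inhibit that pair. The same pair drives Dbp, Tef and Hlf, whose proteins activate genes with a D-box element and thereby pass daily timing to metabolism and detoxification in liver, kidney and intestine. NFIL3, a bZIP repressor, binds the D-box in competition with them, and the nuclear receptors NR1D1 and NR1D2 repress Arntl through the RORE element.

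Wild type replicate 3 stood apart from its group. Its chi-square per gene was 16.6 and 18.6 against the other wild type libraries, which differed by 8.62 from each other, and 29.2 to 33.8 against the mutant libraries, where the other wild type libraries had 41.1 to 57.5.

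Of the 10 genes, 9 had enough reads to be tested and Hlf did not. Dbp and Tef were lower in the mutant, by 2.03-fold and 2.51-fold, and no clock or PAR bZIP gene passed the test in the other direction. The test was edgeR's quasi-likelihood test over 12501 genes with Benjamini-Hochberg adjustment, and a gene was called when its adjusted p was under 0.01, its log2 fold change reached 0.5 in size and its normalized counts averaged 50 or more. Over all genes tested, 5.83% were called lower, 2.78% higher and 8.62% in either direction, beside 2 of the 9 here. At an unadjusted p under 0.05, edgeR placed 0 of the 9 higher and 4 lower. The share of all genes at that cut was not counted. It is at least 13.6% for higher and 15.1% for lower, the shares with an adjusted p under 0.05. By the same call rule on its own adjusted p, DESeq2 called 0 higher and 2 lower. Over the 14178 genes to which DESeq2 gave an adjusted p, it called 407 higher and 785 lower. The median log2 fold change of the 9 (mutant over wild type, as for every fold change given here) was -0.31, and that of all genes tested was -0.04. Without wild type replicate 3, 516 genes were called higher and 867 lower. Among the clock and PAR bZIP genes, Dbp (-1.04, edgeR adjusted p = 0.0068) and Tef (-1.52, edgeR adjusted p = 0.0031) were then still called lower and none higher. The calls were less stable when another library was left out. Without wild type replicate 1 or 2 or mutant replicate 1 or 2, 0 of these genes were called lower. Without mutant replicate 3, 1 was called lower. For 4 of the 9 genes (Dbp, Tef, Per2 and Arntl) every mutant library was below every wild type library. Among all genes tested, 22.2% had non-overlapping groups with the mutant lower and 43% in either direction, so the share of 4 in 9 is close to that of the background in either direction.

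**Figure D1:**
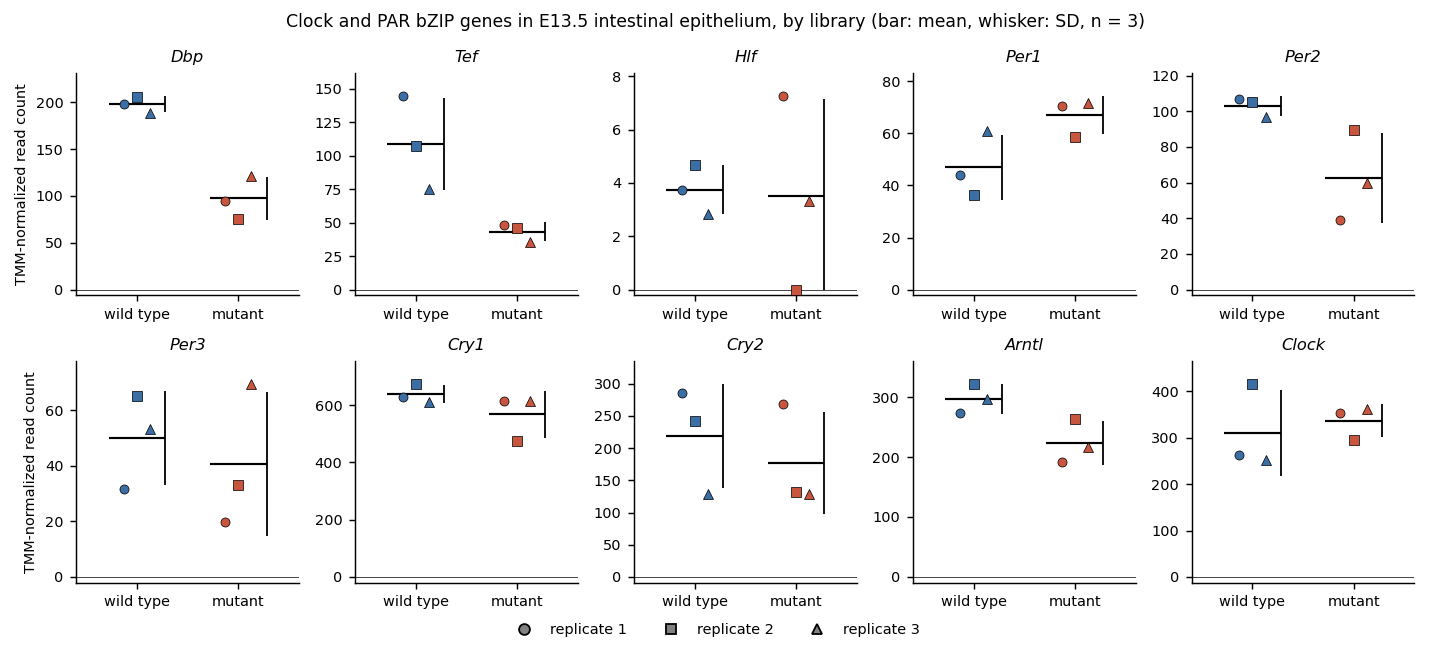
Normalized read count (TMM-scaled, vertical axis from 0, a scale of its own in each panel) of the 10 clock and PAR bZIP genes in the 3 wild type libraries (blue) and the 3 mutant libraries (red). Points are libraries with the shape giving the replicate number, the bar is the mean and the whisker the SD; the 3 mutant points lie below the 3 wild type points for Dbp, Tef, Per2 and Arntl, and the groups overlap in the other panels.

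Dbp, the PAR bZIP factor known for its large daily swing in adult tissues, lies on chr7:52960458-52965525 (plus strand, mm9). Its normalized counts were 199, 206 and 189 in wild type libraries 1 to 3 and 95.2, 75.5 and 122 in mutant libraries 1 to 3. The wild type libraries sat close together and well above each mutant library, and the groups did not overlap. Wild type averaged 198 ± 8.47 and the mutant 97.4 ± 23.1 (SD, n = 3), a log2 fold change of -1.02 with an SE of 0.23 and a 95% interval of -1.52 to -0.53 (edgeR adjusted p = 0.0044). Leaving out 1 library at a time gave log2 fold changes from -1.21 to -0.87, with adjusted p between 0.0046 and 0.024. The call under 0.01 was kept without wild type replicate 3 or without mutant replicate 3. It was lost without wild type replicate 1 (0.019), wild type replicate 2 (0.020), mutant replicate 1 (0.017) or mutant replicate 2 (0.024). The exons of Dbp share 491 bases, 16.7% of its exon bases, with Sphk2, which encodes a sphingosine kinase and is transcribed from the opposite strand. The strand setting of the counting is not given in the sources used here, so reads of the 2 genes in that stretch cannot be told apart. Sphk2 was itself called lower, with 620, 556 and 493 normalized counts in wild type and 288, 371 and 403 in the mutant (log2 fold change -0.65, adjusted p = 0.0065). The ratio of Dbp to Sphk2 counts was 0.320, 0.370 and 0.383 in wild type and 0.331, 0.203 and 0.301 in the mutant, and the groups overlapped in this ratio.

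Tef, which encodes thyrotroph embryonic factor, a second activator of D-box genes, lies on chr15:81632851-81657291 (plus strand). Its normalized counts were 144, 107 and 75.0 in wild type and 48.6, 45.7 and 35.4 in the mutant. Wild type replicate 1 was the highest library and wild type replicate 3, though the lowest of its group, was still above every mutant library. The means were 109 ± 34.7 and 43.2 ± 6.97 (SD, n = 3), a log2 fold change of -1.33 (SE 0.33, 95% interval -2.04 to -0.62, adjusted p = 0.0080). The estimate ranged from -1.52 to -1.07 when 1 library was left out, and adjusted p from 0.0031 to 0.068. The call was kept only without wild type replicate 3, and it was lost without wild type replicate 1 (0.068), wild type replicate 2 (0.027), mutant replicate 1 (0.018), mutant replicate 2 (0.022) or mutant replicate 3 (0.031). A correction for transcript length gave -1.06 with an adjusted p of 0.022, above the call threshold of 0.01. Raw counts of Tef were 79 to 154 in wild type and 32 to 47 in the mutant.

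Hlf, hepatic leukemia factor, is the PAR bZIP gene of liver, brain and blood stem cells, and lies on chr11:90197849-90252231 (minus strand). It had 4, 5 and 3 reads in wild type and 7, 0 and 3 in the mutant, too few for a test, and a difference was not detectable at this depth. The PAR bZIP genes were thus represented mainly by Dbp and Tef here. Their normalized counts with Hlf summed to 347, 318 and 267 in wild type and 151, 121 and 160 in the mutant, and Dbp made up 57.3% to 70.8% of the sum in wild type and 62.3% to 75.9% in the mutant. The groups did not overlap in the sum, which follows from the values of Dbp and Tef, and did overlap in the share of Dbp.

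Promoter windows of 300 bases (250 before and 50 after the start of transcription, RefSeq, GRCm38.p6) were at hand for 9 of the 10 genes, not for Per2, in 14 windows, and each matched mm9 at 1 place, whose mm9 coordinates are given. They were searched on both strands for the E-box CACGTG, the D-box TTANGTAA and the RORE (an A, any 2 letters, a T, any letter and then GGTCA), and no 2 matches overlapped. Over the 32851 windows of the RefSeq table, 7.15% held the E-box, 2.32% the D-box and 2.46% the RORE. Of the 14 windows, 4 held the E-box (the windows of Tef, of Cry1 at -60 and the first of Per1 at -166), 1 the D-box (Per3) and 1 the RORE (the second window of Arntl). A match is a description of the letters and not a bound site. The windows of the PAR bZIP genes that were called lower are shown with the matched letters in capitals. The Dbp window (chr7:52960367-52960666, plus strand) held none of the 3 motifs, and the first Tef window (chr15:81632853-81633152, plus strand) held an E-box at -127:
Dbp: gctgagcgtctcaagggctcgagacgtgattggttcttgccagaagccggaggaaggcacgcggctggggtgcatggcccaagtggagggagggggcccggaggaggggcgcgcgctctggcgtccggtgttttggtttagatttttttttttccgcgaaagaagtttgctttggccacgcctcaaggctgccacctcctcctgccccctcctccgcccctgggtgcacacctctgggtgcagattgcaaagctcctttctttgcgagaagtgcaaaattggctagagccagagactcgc
Tef: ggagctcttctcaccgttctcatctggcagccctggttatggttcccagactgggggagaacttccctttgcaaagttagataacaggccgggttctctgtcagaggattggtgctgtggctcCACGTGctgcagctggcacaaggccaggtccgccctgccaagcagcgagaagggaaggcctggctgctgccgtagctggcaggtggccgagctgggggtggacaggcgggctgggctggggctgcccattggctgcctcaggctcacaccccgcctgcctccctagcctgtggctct

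The period genes encode the inhibitory partners of the cryptochromes. None of the 3 was called. Per2, on chr1, had normalized counts of 107, 105 and 96.8 in wild type and 39.3, 89.4 and 59.7 in the mutant. Every mutant library was below every wild type library, but the mutant libraries were spread widely. The means were 103 ± 5.35 and 62.8 ± 25.2 (SD, n = 3), a log2 fold change of -0.71 (SE 0.32, 95% interval -1.40 to -0.03, adjusted p = 0.11). Its value without 1 library lay between -1.06 and -0.46.

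Per1, the period gene that also responds acutely to light and glucocorticoids, had the opposite sign. Its normalized counts were 44.0, 36.3 and 60.8 in wild type and 70.3, 58.5 and 71.8 in the mutant. Wild type replicate 3 was above mutant replicate 2, so the groups overlapped. The log2 fold change was 0.51 (SE 0.36, 95% interval -0.26 to 1.27, adjusted p = 0.31). The ratio of Per1 to Per2 counts was 0.412, 0.345 and 0.627 in wild type and ran from 0.655 to 1.79 in the mutant. The lowest mutant ratio was just above the highest wild type ratio.

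Per3, which is not needed for rhythm in mice but tracks it in peripheral tissues, had 31.9, 65.2 and 53.2 normalized counts in wild type and 19.7, 33.0 and 69.6 in the mutant. The mutant libraries included both the lowest and the highest value. The log2 fold change of -0.30 had an SE of 0.49 and a 95% interval of -1.34 to 0.74 (adjusted p = 0.68), and its sign turned (0.034) without mutant replicate 1. The promoter window of Per3 (chr4:150418725-150419024, minus strand) is shown because it was the only window of the 10 genes with a D-box, the element through which DBP and TEF act. It held the motif at -205 and -158:
Per3: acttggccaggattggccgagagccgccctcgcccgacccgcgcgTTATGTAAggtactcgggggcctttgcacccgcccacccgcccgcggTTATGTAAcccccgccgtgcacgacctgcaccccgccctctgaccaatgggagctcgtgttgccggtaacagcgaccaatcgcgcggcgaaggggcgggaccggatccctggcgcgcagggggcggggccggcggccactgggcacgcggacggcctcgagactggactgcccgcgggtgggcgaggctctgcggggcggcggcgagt

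The cryptochromes encode the repressors that bind the CLOCK and ARNTL proteins directly. Cry1 was the most highly expressed of the 10 genes, with 629, 675 and 612 normalized counts in wild type and 617, 474 and 614 in the mutant. Mutant replicates 1 and 3 lay within the wild type range and mutant replicate 2 lay below it. The log2 fold change was -0.17 (SE 0.13, 95% interval -0.45 to 0.12, adjusted p = 0.38). With the correction for transcript length the sign turned (0.015).

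Cry2 had 286, 242 and 129 normalized counts in wild type and 268, 132 and 129 in the mutant. Both groups ran from about the same low value to a value near the top of the other group, a wider spread than that of Cry1. The log2 fold change of -0.31 (SE 0.31, 95% interval -0.96 to 0.34, adjusted p = 0.48) was within that spread, and it moved between -0.74 and -0.07 when 1 library was left out. The ratio of Cry1 to Cry2 counts ran from 2.20 to 4.74 in wild type and from 2.30 to 4.75 in the mutant.

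Arntl, which encodes the activator without which the clock stops, had 273, 322 and 296 normalized counts in wild type and 191, 263 and 217 in the mutant. The highest mutant library was just below the lowest wild type library. The means were 297 ± 24.8 and 224 ± 36.2 (SD, n = 3), a log2 fold change of -0.41 (SE 0.18, 95% interval -0.79 to -0.03, adjusted p = 0.10), which did not pass the test. Clock, its partner, had 262, 416 and 252 normalized counts in wild type and 353, 296 and 361 in the mutant. The mutant libraries all lay inside the wild type range. Its log2 fold change was 0.12 (SE 0.20, 95% interval -0.30 to 0.54, adjusted p = 0.69), and without 1 library it lay between 0.00 and 0.39. The second promoter window of Arntl (chr7:120350775-120351074, plus strand) is shown because it held the RORE, the element of the nuclear receptors that control Arntl, 28 bases into the transcript:
Arntl: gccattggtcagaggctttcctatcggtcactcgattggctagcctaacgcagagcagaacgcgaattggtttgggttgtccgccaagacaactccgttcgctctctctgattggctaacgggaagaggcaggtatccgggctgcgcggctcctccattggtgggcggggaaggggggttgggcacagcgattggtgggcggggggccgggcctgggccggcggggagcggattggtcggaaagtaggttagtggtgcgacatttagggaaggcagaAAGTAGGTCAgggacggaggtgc

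**Figure D2:**
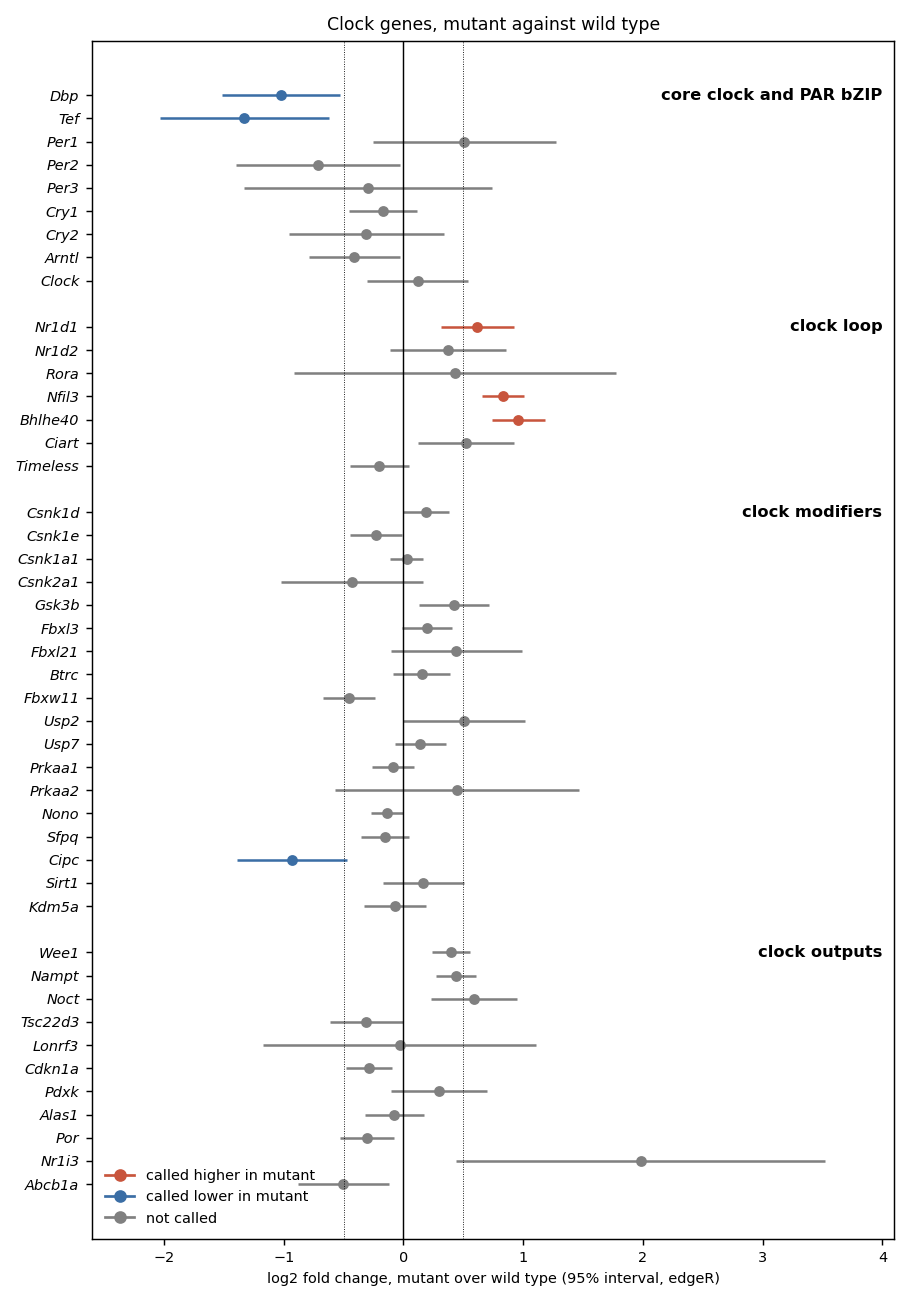
Log2 fold change (mutant over wild type, horizontal axis, 0 marked by a line) with its 95% interval from the edgeR fit for the tested clock and PAR bZIP genes and for genes of the clock loop, modifier and output lists. Called genes are blue when lower (Dbp, Tef and Cipc, left of 0) and red when higher (Nfil3, Bhlhe40 and Nr1d1, right of 0), grey genes were not called, and dotted lines mark the fold minimum of 0.5 in either direction.

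Levels of the 10 genes can be set beside each other as RPKM, that is, reads per kilobase of the longest annotated transcript scaled to the depth of the library. In wild type the order on this scale was Cry1 (10.9 ± 0.553), Dbp (5.67 ± 0.242), Arntl (5.20 ± 0.435), Cry2 (2.82 ± 1.04), Clock (1.84 ± 0.546), Tef (1.27 ± 0.404), Per2 (0.904 ± 0.0469), Per1 (0.516 ± 0.137), Per3 (0.428 ± 0.144) and Hlf (0.0335 ± 0.00807), as mean ± SD with n = 3. The library ranges of neighbours overlapped for Dbp and Arntl, for Cry2 and Clock, for Clock and Tef, for Tef and Per2, and for Per1 and Per3, so that the order within these pairs is not set. In the mutant Cry1 (9.67 ± 1.38) was again first and Arntl (3.92 ± 0.635) came before Dbp (2.79 ± 0.662), again with overlapping ranges. Tef (0.504 ± 0.0812) ranked eighth in the mutant, behind Per1 (0.734 ± 0.0801) and Per2 (0.551 ± 0.221), with a range that overlapped that of Per2 and lay below that of Per1. Among the 12501 genes tested, the mean normalized count placed Cry1 at percentile 55.1, Clock at 42.2, Arntl at 38.2, Cry2 at 33.6, Dbp at 28.8, Per2 at 20.8, Tef at 19.7, Per1 at 16.8 and Per3 at 14.6.

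The other genes of the loop were described from a list of 12 (nuclear receptors, bZIP and bHLH repressors, and paralogues of the activators), of which 8 were tested. Of these, 3 were called higher (Nfil3, Bhlhe40 and Nr1d1) and none lower, beside 2.78% called higher over all genes. At an unadjusted p under 0.05 edgeR placed 4 higher and 0 lower. The share of all genes at that cut, which was not counted, is at least 13.6% for higher and 15.1% for lower. By the call rule, DESeq2 called 3 higher and 0 lower, beside 407 and 785 of the 14178 genes with a DESeq2 adjusted p. The signs were positive for 6 and negative for 2, with a median log2 fold change of 0.48. An adjusted p under 0.05 alone was reached by 4 of the 8, all higher (13.6% of all genes tested were higher by that rule), and by 2 of the 9 clock and PAR bZIP genes, both lower (15.1%, and 28.7% in either direction).

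Nfil3, the D-box repressor that opposes DBP and TEF, had 2191, 1865 and 2194 normalized counts in wild type and 3738, 3785 and 3599 in the mutant. The groups were far apart against their spread. It rose by a log2 fold change of 0.83 (SE 0.08, adjusted p = 3.0e-06), and from 0.76 to 0.88 with 1 library left out. Nfil3 counts were 9.06 to 11.6 times those of Dbp in wild type and 39.3, 50.1 and 29.6 times in the mutant. Nfil3 was higher and Dbp lower in every mutant library, so these ratios had to separate the groups and add no further result.

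Bhlhe40 (also called Dec1), a bHLH repressor that binds E-boxes, had 907, 929 and 835 normalized counts in wild type and 1755, 1519 and 1924 in the mutant. Each mutant library was well above each wild type library, and the log2 fold change was 0.96 (SE 0.11, adjusted p = 9.5e-06). Nr1d1 (also called Rev-erb alpha), the repressor of Arntl, had 386, 364 and 337 normalized counts in wild type and 547, 494 and 629 in the mutant. The groups did not overlap, and the log2 fold change was 0.62 (SE 0.14, adjusted p = 0.0052). That call was lost with library size as the only scaling (0.51, adjusted p = 0.021) and without wild type replicate 1 (0.014), wild type replicate 2 (0.019), mutant replicate 1 (0.018) or mutant replicate 3 (0.035). The exons of Nr1d1 share 263 bases, 8.42% of its exon bases, with Thra on the opposite strand, and Thra had a log2 fold change of -0.14 (adjusted p = 0.59).

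Nr1d1 counts were 1.42, 1.13 and 1.14 times those of Arntl in wild type and 2.86, 1.88 and 2.90 times in the mutant. Since neither gene overlapped between the groups and their directions were opposite, these ratios had to separate and add no further result. Dbp, Nr1d1 and Bhlhe40 are all known E-box targets of the CLOCK and ARNTL pair, and in these libraries Dbp was called lower and Nr1d1 and Bhlhe40 higher.

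Ciart, a repressor of the CLOCK and ARNTL pair listed under its older symbol Gm129, had 223, 209 and 205 normalized counts in wild type and 355, 235 and 325 in the mutant. The groups did not overlap, mutant replicate 2 being just above wild type, and the log2 fold change of 0.52 (SE 0.19, adjusted p = 0.048) missed the call. Its promoter window (chr3:95686102-95686401, minus strand) is shown for comparison with those of Dbp and Tef, since it held the E-box at -116, -58 and -44:
Ciart: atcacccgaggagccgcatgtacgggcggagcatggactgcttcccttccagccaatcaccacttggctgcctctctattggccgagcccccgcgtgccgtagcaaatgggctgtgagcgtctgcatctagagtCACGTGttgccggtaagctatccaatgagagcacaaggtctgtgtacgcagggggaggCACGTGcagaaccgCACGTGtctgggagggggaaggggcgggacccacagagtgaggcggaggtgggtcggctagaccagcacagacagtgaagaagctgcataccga

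Nr1d2, the second Rev-erb receptor, had a log2 fold change of 0.37 (edgeR adjusted p = 0.24). Timeless, better known for replication fork protection in mammals, had a log2 fold change of -0.20 (edgeR adjusted p = 0.21). With the length correction the sign of Timeless turned (log2 fold change 0.056, edgeR adjusted p = 0.71). Rorb, Bhlhe41 and Npas2 had under 10 counts in every library. Arntl2, the paralogue of Arntl, was named after its values were seen. It had 9, 11 and 8 reads in wild type and 0 in all mutant libraries, which is at least 8.21-fold lower when the mutant group is set at a floor of 3 counts over the group. It was below the filter on low counts and was not tested.

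**Figure D3:**
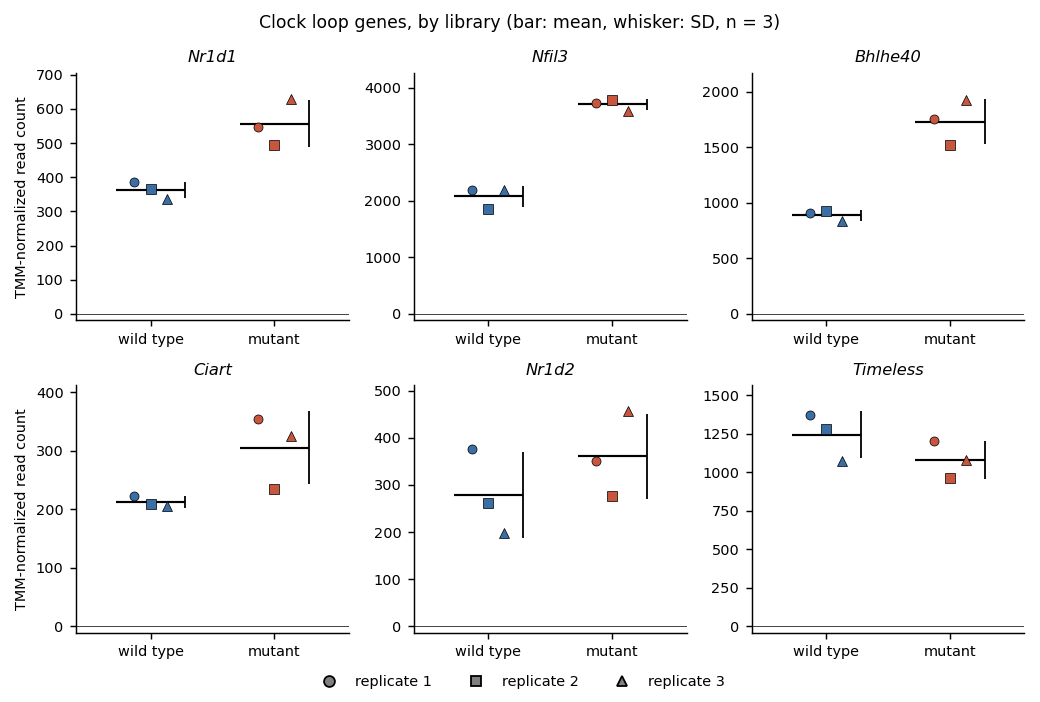
Normalized read count (TMM-scaled, vertical axis from 0, a scale of its own in each panel) of genes of the clock loop list in the 3 wild type libraries (blue) and the 3 mutant libraries (red), drawn as points with the mean as a bar and the SD as a whisker. The mutant points lie above the wild type points for Nfil3, Bhlhe40, Nr1d1 and Ciart.

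Genes that modify clock proteins were described from a list of 18 kinases, ubiquitin ligases and cofactors, all tested. Signs were positive for 10 and negative for 8, with a median of 0.08, and 1 gene was called, lower. That is 1 of 18 beside 5.83% called lower over all genes, so the share is near the background. Cipc, which encodes an inhibitor of CLOCK and is listed under its older symbol 2310044G17Rik, had 226, 227 and 210 normalized counts in wild type and 97.2, 145 and 106 in the mutant. The groups did not overlap, and its log2 fold change of -0.93 (SE 0.22, adjusted p = 0.0052) was close to that of Dbp. The call of Cipc was lost with the length correction (-0.67, adjusted p = 0.028) and without wild type replicate 1 (0.024), wild type replicate 2 (0.022), mutant replicate 1 (0.027) or mutant replicate 3 (0.023). Of the others, Fbxw11, a ubiquitin ligase subunit for PER proteins, had a log2 fold change of -0.46 (adjusted p = 0.0039), under the fold minimum. Gsk3b, a kinase of several clock proteins, had 0.42 (adjusted p = 0.033), and Csnk1e, the casein kinase that marks PER for degradation, -0.23 (adjusted p = 0.11). Nono, an RNA-binding partner of PER, had a log2 fold change of -0.14 (edgeR adjusted p = 0.11). With the length correction the sign of Nono turned (log2 fold change 0.0011, edgeR adjusted p = 0.99).

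Known outputs of the clock were described from a list of 14, of which 11 were tested and none was called, with 5 positive and 6 negative signs and a median of -0.03. An adjusted p under 0.05 alone was reached by 3 in each direction, beside 13.6% higher and 15.1% lower over all genes. An unadjusted p under 0.05 was reached by 4 in each direction. The share of all genes at that cut, which was not counted, is at least 13.6% for higher and 15.1% for lower. By the call rule, DESeq2 called Noct higher and none lower, beside 407 and 785 of the 14178 genes with a DESeq2 adjusted p. Nampt, the enzyme of NAD salvage, had a log2 fold change of 0.44 (adjusted p = 0.00098), Wee1, the kinase that holds cells before mitosis, 0.40 (adjusted p = 0.0013), and Noct, which encodes the phosphatase nocturnin and is listed as Ccrn4l, 0.59 (adjusted p = 0.017). On the other side stood Cdkn1a, the cell cycle inhibitor p21, at -0.29 (adjusted p = 0.029). Of the 14 genes, 6 were listed as targets of the PAR bZIP factors, and their values, named here after they were seen, went both ways. Nr1i3, the xenobiotic receptor CAR, had 2.81, 12.1 and 3.80 normalized counts in wild type and 37.2, 24.5 and 13.3 in the mutant. The groups did not overlap, the counts were low and the log2 fold change was 1.98 (SE 0.73, 95% interval 0.44 to 3.52, adjusted p = 0.052). Its exons share 51.4% of their bases with Tomm40l on the opposite strand. Pdxk, the pyridoxal kinase, had 0.30 (adjusted p = 0.25) and Alas1, the first enzyme of heme synthesis, -0.08 (adjusted p = 0.66). Por, the electron donor of cytochrome P450 enzymes, had -0.31 (adjusted p = 0.040) and Abcb1a, a drug efflux pump, -0.50 (adjusted p = 0.045), and the sixth, Slc15a1, had too few reads to be tested. Slc9a3 and Slc15a1, transporters of the mature enterocyte, and Cyp7a1, a liver enzyme, had under 10 counts in every library.

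The genes whose pattern over the 6 libraries was nearest to that of Dbp, by Euclidean distance of log2 CPM centred on each gene's mean, were Styk1 (0.214), Edn3 (0.216) and Abtb1 (0.232). For Tef they were Ikzf2 (0.173), Itga5 (0.313) and Khnyn (0.314). Styk1 had 183, 190 and 185 normalized counts in wild type and 82.8, 71.3 and 98.4 in the mutant, much like Dbp. Ikzf2 had 245, 204 and 138 in wild type and 81.7, 86.2 and 61.9 in the mutant, with the same order of the wild type libraries as Tef.

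The libraries held 18216537 to 20397278 counts each, and the TMM factors lay between 1.01 and 1.06 for wild type and between 0.957 and 0.969 for the mutant. Between 2 libraries of a group, the chi-square per gene was 6.34 to 18.6, so that no pair agreed within sampling noise. Tcf7l1 itself had 438 ± 64.0 normalized counts in wild type and 49.1 ± 21.1 in the mutant (SD, n = 3, log2 fold change -3.16), and Shh, which carries the Cre, had a log2 fold change of -1.28. The groups also differed in sex: Xist was at 0 in each wild type library and at 237 to 451 normalized counts in the mutant libraries, while Ddx3y, Eif2s3y, Uty and Kdm5d were at 0 in each mutant library. Sex and genotype cannot be told apart. Epithelial markers were present in every library (8 of 8 tested, summed normalized counts 155948 to 166086 in wild type and 151290 to 155174 in the mutant). Of these, 3 (Cdh1, Krt18 and Cdx2) were called lower and 0 higher, beside 5.83% and 2.78% over all genes. At an adjusted p under 0.05 alone 5 were lower and 2 higher, Epcam (0.25) and Cldn7 (0.24), beside 15.1% and 13.6% over all genes. Markers of mesenchyme summed to 1314 to 1536 in wild type and 1029 to 1458 in the mutant, mostly Vim, and 3 of the 8 were tested. None of these was called, with log2 fold changes of -0.46 for Vim (adjusted p = 0.0049), -2.21 for Col3a1 (adjusted p = 0.026) and 1.52 for Acta2 (adjusted p = 0.014). Acta2 was at 488 in mutant replicate 3 and ranged from 69.3 to 171 in the other libraries. Dcn was at 77.8 in wild type replicate 1 and at 9.57 or less elsewhere, and Pdgfra, Col1a1, Col1a2 and Twist1 were at 21.5 or less in every library. Pdgfra, which was not tested, had 23, 6 and 21 reads in wild type and 0, 0 and 1 in the mutant. Blood markers summed to 19.9 to 34.5 and 5.32 to 9.95, with Hba-a1, Hba-a2, Hbb-b1 and Ptprc at 0 throughout. Hbb-y, the only blood marker tested, had a log2 fold change of -2.07 (edgeR adjusted p = 0.028) and was not called. Neural crest markers summed to 207 to 244 and 194 to 278, and endothelial markers to 13.1 to 26.1 and 12.2 to 36.2, with Cdh5, Kdr and Tek at 0 throughout. Genes of the response to cell dissociation (Fos, Fosb, Jun, Junb, Jund, Egr1, Atf3, Ier2, Dusp1, Zfp36, Hspa1a and Hspa1b) summed to 96438 to 103414 in wild type and 113764 to 120813 in the mutant. Among these 12, Atf3 (1.03) and Hspa1b (1.34) were called higher and Jun (-1.11) lower, beside 2.78% and 5.83% over all genes. At an adjusted p under 0.05 alone 6 were higher and 3 lower, beside 13.6% and 15.1% over all genes. The lower genes included Fos (-0.44) and Jund (-0.50). The summed counts therefore do not stand for each gene of the list. The part of sex, of these marker lists or of the dissociation response in the values of the clock and PAR bZIP genes was not tested.

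**Figure D4:**
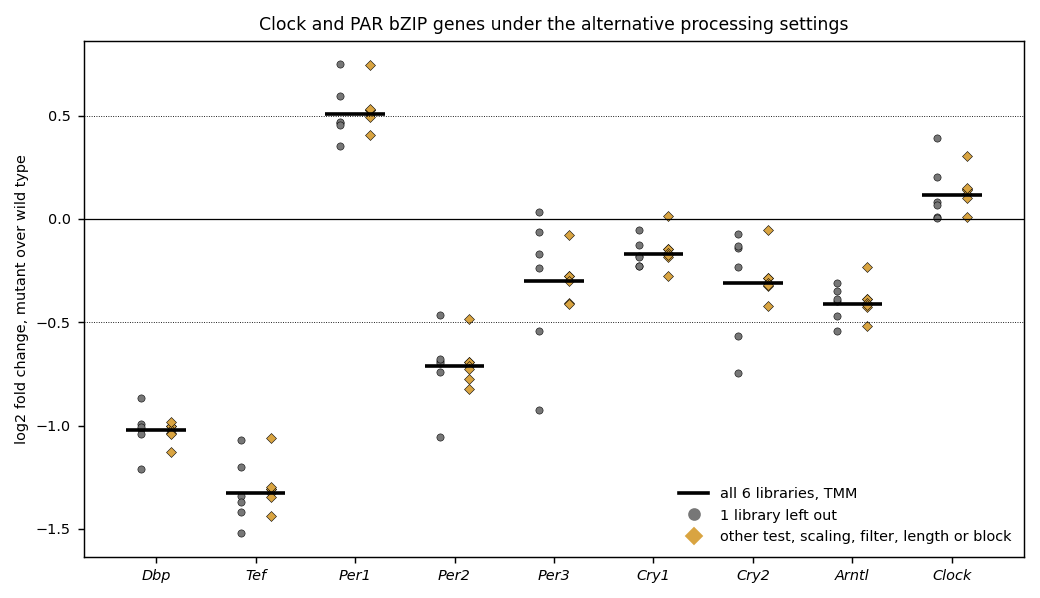
Log2 fold change (mutant over wild type, vertical axis) of the 9 tested clock and PAR bZIP genes (horizontal axis) with all 6 libraries (bar), with 1 library left out (grey circles) and with another test, scaling, filter, length correction or block (yellow diamonds). Dbp and Tef stay below 0 under each alternative drawn, and Per3 and Cry1 each cross 0 under 1 of them.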

How the data were processed

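The authors isolated EpCAM-positive, DAPI-excluding epithelial cells by sorting, made cDNA from polyA RNA (SMARTer v4) and, per the labels and the study's methods, aligned reads to mm9 with STAR 2.5.2b and counted uniquely mapped reads per UCSC gene with featureCounts 1.5.1. The authors deposited raw read counts per gene for each of the 6 libraries. Strand setting, litter and hour of dissection are not given in the sources used here.

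Counts were filtered with filterByExpr, TMM-scaled and tested with edgeR 4.0.16 (quasi-likelihood, 3 mutant against 3 wild type libraries, R 4.3.3) over 12501 of 17112 genes with a count, with Benjamini-Hochberg adjustment. Normalized counts are counts divided by the TMM-scaled library size after the filter and multiplied by the mean total count of the libraries. A called gene had adjusted p under 0.01, a log2 fold change of 0.5 or more in size and a mean normalized count of 50 or more. The script was tested on simulated data. Coordinates, exon overlaps and lengths come from GENCODE M1 on mm9. DESeq2 1.42.0, RLE scaling, library size scaling, other filters and thresholds, a loess correction for transcript length, a replicate block and leaving out each library were the 15 alternatives. Intervals cover 95%. Log2 CPM used a prior count of 2.

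Named genes were all 10 clock and PAR bZIP genes; from the other clock lists each called gene, each gene under 10 counts in every library and up to 4 others with the smallest adjusted p; the targeted gene, the Cre locus, the sex and dissociation lists; and the 3 nearest patterns of Dbp and of Tef. The values of 1 gene of the loop list are not reported here, though the counts of the list include it. The 10 genes and the lists were chosen with earlier results of these data known.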

Additional observations from a re-analysis of the deposited data

How the results depend on the processing

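Dbp and Tef kept their direction under all 15 alternatives, and DESeq2 called both lower (adjusted p = 0.0017 and 0.0048). Of 433 values of 29 genes under alternatives, 388 kept direction and call, 24 lost the call, 17 gained it and 4 turned sign: Per3 (0.034 without mutant replicate 1, and -0.93 to 0.034 with 1 library left out) and, with the length correction, Cry1 (0.015), Timeless (0.056) and Nono (0.0011). Of the clock and PAR bZIP genes, 2 were called lower, 1 with the length correction, and 0 to 2 with 1 library left out (0 without wild type replicate 1 or 2 or mutant replicate 1 or 2, 1 without mutant replicate 3). Over all genes, 348 were called higher and 729 lower. These were 200 higher with library size as the only scaling, 1702 and 1892 at an adjusted p under 0.05 alone, 85 and 284 at a log2 fold change of 1 or more in size, and 762 and 391 with the length correction. With 1 library left out they ran from 260 to 516 and from 405 to 867, the highest of each without wild type replicate 3, with 405, 406 and 463 lower without wild type replicate 1, wild type replicate 2 and mutant replicate 2. The share of calls that were higher was 32.3%, 17.3% with library size scaling and 66.1% with the length correction, which moved the median of all genes by -0.11 and 0.13. The 3 loop genes called higher were 0 at a log2 fold change of 1 or more in size. Modifiers called higher went from 0 to 1 at an adjusted p under 0.05 alone and to 1 with the length correction. Modifiers called lower went from 1 to 2 with library size scaling, 2 at an adjusted p under 0.05 alone, 0 at that fold minimum, 0 with the length correction and 0 to 1 with 1 library left out. Outputs called higher went from 0 to 1 with DESeq2, 3 at an adjusted p under 0.05 alone, 2 with the length correction and 0 to 1 with 1 library left out, and outputs called lower from 0 to 3 at an adjusted p under 0.05 alone and 0 to 1 with 1 library left out. Apart from the changed thresholds and the fewer libraries, the cause was not tested. Same-numbered libraries did not deviate together (correlations 0.01, -0.04 and -0.02). No pairing by number was detected, though so few libraries cannot exclude one. The replicate block gave 339 genes higher and 691 lower, and Dbp (-1.04) and Tef (-1.30) were still the clock and PAR bZIP genes called lower. Hlf, with at most 7 reads in a library, could not be tested at this depth.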
